A study of Saccharomyces cerevisiae with 6 samples.

Results

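Hydrophilins and other stress-induced genes of budding yeast were followed through 10 members: DDR2, HOR7, GRE1, SIP18, YGP1, CTT1, XBP1, ALD2, ALD3 and NQM1. They were found by gene symbol among the 5449 genes of Saccharomyces cerevisiae that the array measured, and all 10 were found. A gene with several probe sets would have been represented by the one chosen by the highest mean level over the 6 arrays, the only measured value in that rule, but each member had 1. The names were proposed with earlier differences between these arrays in view. The counts and medians of the members below therefore describe the members and support nothing further. The arrays compared 2 groups of 3 biological replicates in the Σ1278b background, which forms filaments when nitrogen is scarce. The pun1 deletion strain is described as a diploid homozygous for loss of PUN1, a gene of a plasma membrane protein, and the control is a wild-type diploid of the same background. Both strains grew at 30 °C in rich YPD medium to an OD600 of 0.6, were washed, and were kept for 6 h in low-nitrogen SLAD medium with 2% glucose before RNA was taken. No group without nitrogen limitation and no group under an added stress was compared, and no label says how many independent transformants stand behind the deletion strain.

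Hydrophilins are small proteins, rich in glycine and very soluble in water, that accumulate when cells lose water and protect other proteins during drying. Many stress-induced yeast genes are switched on by the transcription factors Msn2 and Msn4, which bind a short promoter element when protein kinase A activity falls, as it does when nutrients run out. Other factors act beside them, among them the osmotic stress kinase Hog1 and the oxidative stress factors Yap1 and Skn7.

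Each array gave 1 log2 value per probe set, and 5498 probe sets of S. cerevisiae were tested. Across probe sets, 2 arrays of the same group had correlations of 0.996 to 0.999 and 2 arrays of different groups 0.976 to 0.981. PUN1 read 8.33, 4.83 and 4.93 (log2) on deletion replicates 1, 2 and 3, against 13.35, 13.50 and 13.55 on wild-type replicates 1, 2 and 3. It was therefore lower on every deletion array, but on deletion replicate 1 it lay above the array's background, which was 5.67 to 5.69 on the deletion arrays. The mating-type markers did not match between the groups. MF(ALPHA)1, which encodes the alpha-factor pheromone and marks alpha cells, was 7.93 (log2) higher in the deletion arrays. HMRA1, whose a1 transcript is made in a cells and in a/alpha diploids, was above background on 0 of 3 deletion arrays and on 3 of 3 wild-type arrays. The a-specific genes STE2, of the alpha-factor receptor, and MFA1 and MFA2, of a-factor, lay between 6.11 and 7.49 (log2) on all 6 arrays and did not pass, with differences of -0.31, -0.07 and -0.35 (adjusted p = 0.0934 to 0.703). The other alpha-cell markers MF(ALPHA)2, STE3 and HMLALPHA1 were higher in the deletion arrays by 6.76, 4.27 and 5.29 (log2), and the haploid-specific FUS3 by 6.33. Of the 9 mating-type markers 5 were higher, 1 was lower and 3 did not pass. By these markers the deletion arrays read as alpha-type cells and the wild-type arrays as a/alpha cells. Both strains are described as diploid, and ploidy was not measured. For every member below loss of PUN1 and this difference in mating type cannot be told apart. The 25S ribosomal RNA control, a sign of RNA purity, was high on deletion replicates 2 and 3 and on wild-type replicate 1 and the groups overlapped in it (p = 0.8 in a two-sided exact permutation test, smallest possible 0.1). Leaving out those 3 arrays leaves deletion replicate 1 alone against wild-type replicates 2 and 3. Every value below without the 3 arrays of high 25S signal rests on that 1 deletion array. Effects of RNA purity and of that array cannot be told apart in it. In that fit STE2 and MFA1 differed by -0.66 and -0.34. Deletion replicate 1 read 6.67 and 6.59 on them, the lowest of the deletion arrays. MFA2 passed as lower without deletion replicate 1 and after a further quantile normalization.

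The members did not move as a block. In the deletion arrays 5 rose (DDR2, GRE1, SIP18, XBP1 and ALD3), CTT1 fell, and HOR7, YGP1, ALD2 and NQM1 did not pass the test (limma, adjusted p under 0.05 over all tested probe sets). Over all tested probe sets 25.6% were called, 15.8% higher and 9.82% lower, and the members' counts are given beside these shares without drawing on them. The median difference of the members was 0.44 (log2), against 0.02 over all genes. It is a description only, as the members were proposed with earlier differences in view. The values of the deletion and wild-type arrays did not overlap for 7 of the 10 members, where 44.8% of all tested probe sets showed no overlap. A difference over 1 (log2) with a call higher was found for 4 members, and for 1.4% of the tested probe sets. All 10 members lay above background on all 6 arrays.

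**Figure D1:**
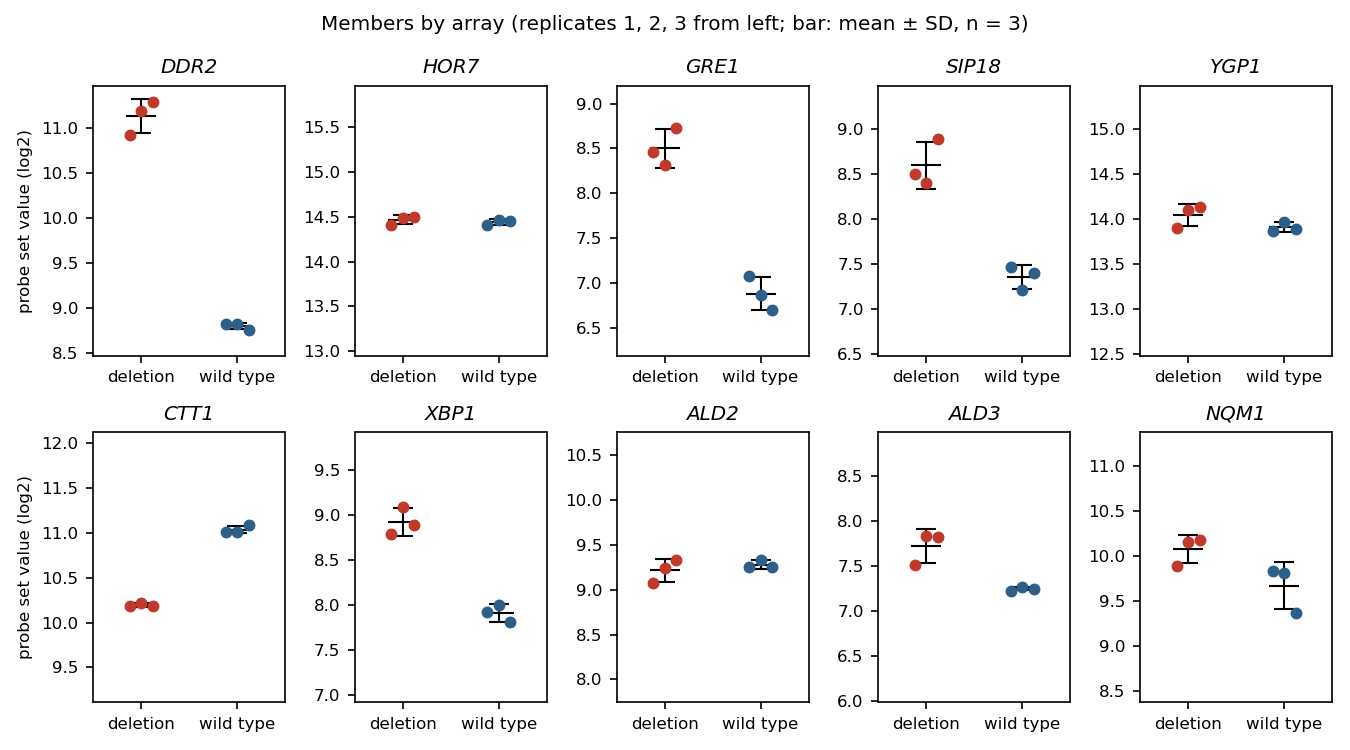
Probe set values (log2) of the 10 members on each array, with deletion arrays left and wild-type arrays right, points for replicates and bars for mean ± SD (n = 3 per group). Every panel spans the same number of log2 units, so that the separation of DDR2, GRE1, SIP18 and XBP1, the opposite order of CTT1 and the overlap of HOR7, YGP1 and ALD2 can be compared.

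DDR2, which encodes a small protein induced by DNA damage, heat and many other stresses, had the largest difference of the members. It read 10.92, 11.19 and 11.29 (log2) on deletion replicates 1, 2 and 3, against 8.82, 8.82 and 8.76 on wild-type replicates 1, 2 and 3. The groups were far apart, with 2.10 log2 units between the lowest deletion array and the highest wild-type array. The limma difference was 2.33 (SE 0.09, adjusted p = 1.03e-05), a 5.04-fold higher level, which ranked 20 among the increases of all 5449 genes.

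HOR7, the paralog of DDR2 and a gene known to respond to high osmolarity, showed no such separation. It read 14.41, 14.49 and 14.49 (log2) on the deletion arrays and 14.40, 14.46 and 14.45 on the wild-type arrays. The groups overlapped, and the difference was 0.02 (95% interval -0.08 to 0.13, adjusted p = 0.722). HOR7 lay near the top of the scale, since the highest value of any probe set was 15.11 to 15.15, and whether the upper end of the scale compressed its difference was not tested.

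GRE1 and SIP18 are paralogs and the hydrophilins of the group. GRE1 is known to be induced by osmotic and oxidative stress, and SIP18 encodes a phospholipid-binding protein that helps cells survive drying. GRE1 read 8.46, 8.31 and 8.73 (log2) on deletion replicates 1, 2 and 3, against 7.08, 6.87 and 6.71 on wild-type replicates 1, 2 and 3. Every deletion array was above every wild-type array. The difference was 1.61 (SE 0.13, adjusted p = 0.000339), a 3.06-fold higher level. SIP18 read 8.49, 8.40 and 8.89 on the deletion arrays, against 7.46, 7.20 and 7.39 on the wild-type arrays. Deletion replicate 3 was the highest for both genes, and again the groups did not overlap. The difference of SIP18 was 1.24 (SE 0.13, adjusted p = 0.00117), a 2.36-fold higher level.

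Of 5 other hydrophilin genes listed, 3 were measured under the names searched and the rest were not analysed here. STF2 fell, and YNL190W and NOP6 did not pass, with a median of -0.03 for the 3. STF2, which encodes a factor that stabilises the inhibited mitochondrial ATP synthase, averaged 12.24 ± 0.04 (log2) in the deletion and 12.73 ± 0.16 in wild type (SD, n = 3 each). Its difference was -0.48 (SE 0.08, adjusted p = 0.00618 in limma). YNL190W, a hydrophilin gene, differed by 0.12 (adjusted p = 0.122), with the 3 deletion arrays above the 3 wild-type arrays, and NOP6, which encodes a protein of ribosome assembly with hydrophilin character, by -0.03 (adjusted p = 0.785).

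XBP1 encodes a transcriptional repressor, related in its DNA-binding domain to the cell-cycle factors Swi4 and Mbp1, that is induced by stress and starvation. It read 8.79, 9.09 and 8.89 (log2) on the deletion arrays, against 7.92, 8.01 and 7.81 on the wild-type arrays. All deletion arrays were higher, by at least 0.79. The difference was 1.01 (SE 0.09, adjusted p = 0.000468), a 2.02-fold higher level.

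CTT1 was the member that fell. It encodes catalase T of the cytosol, which breaks down hydrogen peroxide and is a classic target of Msn2 and Msn4. CTT1 read 10.18, 10.22 and 10.18 (log2) on the deletion arrays, against 11.01, 11.01 and 11.08 on the wild-type arrays. Replicates lay close together in both groups and the groups did not overlap. The difference was -0.84 (SE 0.04, adjusted p = 2.7e-05), which puts the deletion at 55.9% of the wild-type level. CTA1, the gene of the peroxisomal catalase A, moved the other way: it averaged 8.25 ± 0.09 in the deletion and 7.24 ± 0.13 in wild type (SD, n = 3 each), a difference of 1.01 (SE 0.08, adjusted p = 0.000306 in limma).

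ALD2 and ALD3 are neighbouring genes of very similar cytosolic aldehyde dehydrogenases, which act in the synthesis of beta-alanine from polyamines. ALD3 read 7.51, 7.84 and 7.82 (log2) on deletion replicates 1, 2 and 3, against 7.22, 7.26 and 7.24 on the wild-type arrays. The groups did not overlap, with deletion replicate 1 the lowest of the deletion arrays. The difference was 0.48 (SE 0.09, adjusted p = 0.0102), a 1.39-fold higher level. That call was lost after a further quantile normalization, where the difference was 0.22 (adjusted p = 0.0994). With deletion replicate 1 alone against wild-type replicates 2 and 3, after leaving out the 3 arrays of high 25S signal, the difference was 0.25.

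ALD2 read 9.08, 9.24 and 9.33 on the deletion arrays and 9.25, 9.33 and 9.25 on the wild-type arrays. The groups overlapped, and the difference was -0.06 (95% interval -0.23 to 0.10, adjusted p = 0.539). The names of both probe sets carry no suffix for shared probes, and whether transcripts of either gene also bound the other's probes was not tested. Among the other aldehyde dehydrogenase genes, ALD5, of a mitochondrial enzyme, fell with a difference of -1.60 (SE 0.10, adjusted p = 8.19e-05 in limma), with means of 11.53 ± 0.16 in the deletion and 13.13 ± 0.13 in wild type (SD, n = 3 each). ALD6, the main cytosolic enzyme that makes acetate, differed by -0.65 (adjusted p = 0.0302). Leaving out any array except deletion replicate 1 ended that call (adjusted p = 0.0652 to 0.0992). Its difference was -0.20 without the 3 arrays of high 25S signal. ALD4, of the main mitochondrial enzyme, differed by -0.09 (adjusted p = 0.409).

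NQM1 encodes a transaldolase that accumulates in stationary phase and is the paralog of TAL1, the transaldolase of the pentose phosphate pathway. NQM1 read 9.90, 10.15 and 10.18 (log2) on the deletion arrays, against 9.84, 9.82 and 9.37 on the wild-type arrays. The groups did not overlap but nearly touched, with 0.06 between them, and wild-type replicate 3 stood below the other wild-type arrays. The difference of 0.40 (SE 0.14) did not pass (adjusted p = 0.0774). Without wild-type replicate 3 it was 0.25 (adjusted p = 0.124). TAL1 differed by 0.13 (adjusted p = 0.0428), but that call ended when any array except deletion replicate 1 was left out. The call also ended under the replicate block (adjusted p = 0.0561), after median centring and when every probe set other than controls was tested. Without the 3 arrays of high 25S signal the difference of TAL1 was 0.09.

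YGP1 encodes a secreted glycoprotein of the cell wall that is made when nutrients run short. It read 13.90, 14.10 and 14.13 (log2) on deletion replicates 1, 2 and 3, against 13.87, 13.97 and 13.89 on the wild-type arrays. Deletion replicate 1 lay within the wild-type range and the other two lay above it. The difference was 0.13 (95% interval -0.03 to 0.30, adjusted p = 0.200), and it passed only without deletion replicate 1, at 0.20 (adjusted p = 0.0329). SPS100, its paralog and a gene of spore wall maturation, differed by 0.20 (adjusted p = 0.226), and passed without wild-type replicate 3, at 0.34 (adjusted p = 0.00683).

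**Figure D2:**
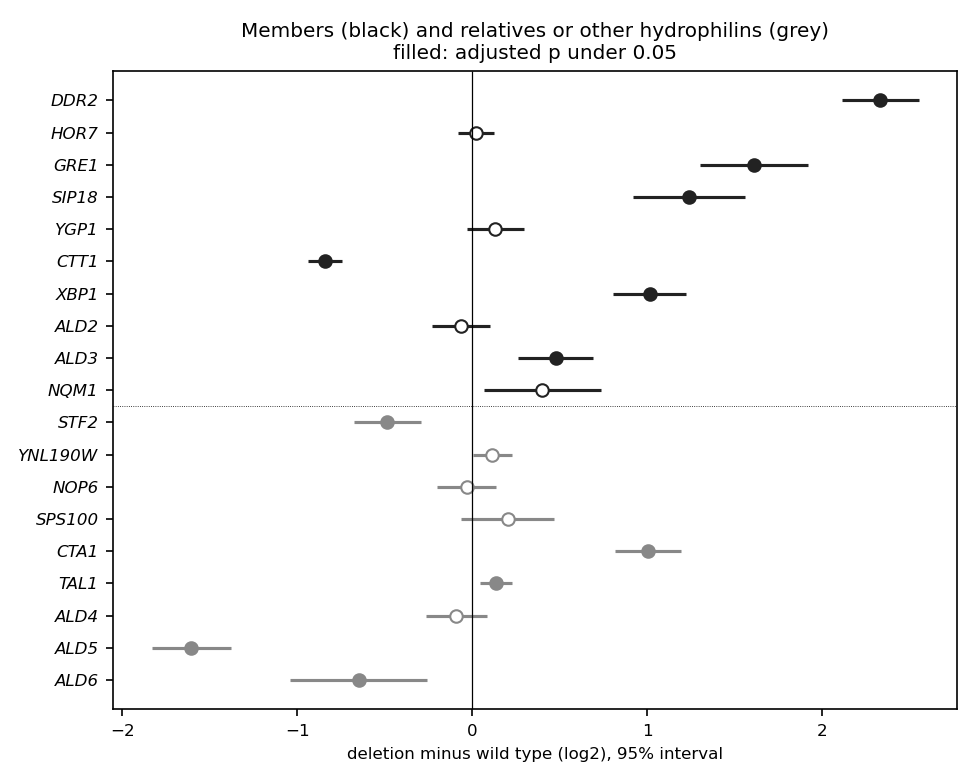
Differences, deletion minus wild type (log2), with 95% intervals from limma for the 10 members in black and for their relatives and other hydrophilins in grey, filled where the adjusted p was under 0.05. DDR2 at 2.33 and ALD5 at -1.60 mark the ends of the range, and relatives such as CTT1 and CTA1 lie on opposite sides of 0.

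Related genes were also compared by the log2 ratio of the 2 genes within each array, over 6 pairs. With 3 arrays per group the exact two-sided permutation test cannot go below 0.1, or 0.15 after Benjamini-Hochberg adjustment over the 6 pairs as they fell, so no pair could pass and the values are given as a description. The ratio of DDR2 to HOR7 differed between the groups by 2.31 (SE 0.09, exact p = 0.1), with HOR7 near the top of the scale. That of ALD3 to ALD2 differed by 0.54 (SE 0.05, exact p = 0.1) and that of CTT1 to CTA1 by -1.85 (SE 0.11, exact p = 0.1). The ratio of GRE1 to SIP18, both of which rose, differed by 0.37 (SE 0.12, exact p = 0.1). In each of these 4 pairs the ratios of deletion and wild-type arrays did not overlap. Single probe sets showed no overlap for 44.8% of all tested, and the share for ratios of other gene pairs was not computed. The ratios overlapped for NQM1 against TAL1, with a change of 0.27 (SE 0.17, exact p = 0.3), and for YGP1 against SPS100, with -0.07 (SE 0.17, exact p = 0.6).

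The arrays did not contribute evenly. Deletion replicate 1 was the lowest of the deletion arrays for 8 of the 10 members and the highest for none, with a median deviation of -0.13 (log2) from the deletion mean. Deletion replicate 3 was the highest for 7 members. How often all tested genes take this order was not counted. Deletion replicate 1 was also the array on which PUN1 read above background and, of the 3 deletion arrays, the one with a low 25S control; the part of either in the members' values was not tested. Without deletion replicate 1 the count was 6 members higher and 1 lower. Leaving out the 3 arrays of high 25S signal, an alternative added after the data were seen, keeps deletion replicate 1 as the only deletion array. DDR2, GRE1, SIP18, XBP1 and CTT1 kept their direction and their call under all 14 alternatives tried.

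**Figure D3:**
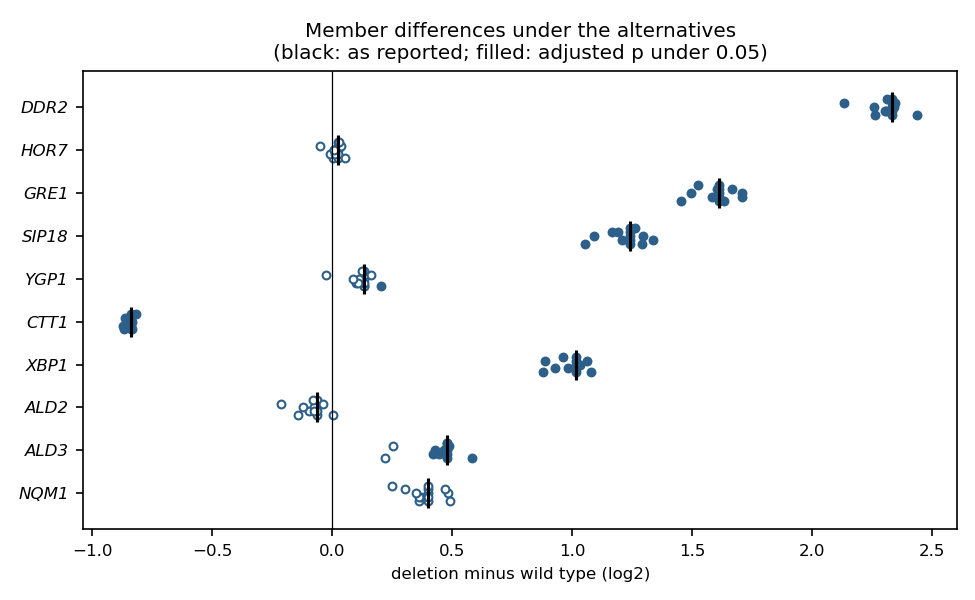
Difference of each member, deletion minus wild type (log2), as reported (black line) and under 14 alternatives (points, filled where the adjusted p was under 0.05). DDR2, GRE1, SIP18, XBP1 and CTT1 stay filled throughout, ALD3 is open under 2 alternatives and YGP1 is filled under 1.

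Other stress-induced genes gave a mixed picture. The counts of this and the following lists stand beside 15.8% called higher and 9.82% lower over all tested probe sets. Of 43 further genes of the Msn2/Msn4 and environmental stress response, 11 rose, 10 fell and 22 did not pass, with a median of -0.02 (log2). MOH1, a gene needed for survival in stationary phase, rose by 1.16 and PHM8, of a lysophosphatidic acid phosphatase, by 0.88. TMA10, the ribosome-associated paralog of STF2, differed by -1.57 and the nicotinamidase gene PNC1 by -0.78. The adjusted p-values of these 4 lay between 0.00231 and 0.00695 (limma). The count of 11 was 6 without deletion replicate 2 or without deletion replicate 3. PHM8 was higher by 0.51 without the 3 arrays of high 25S signal.

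Among 14 measured targets of the osmotic stress kinase Hog1, 4 rose, 1 fell and 9 did not pass, with a median of 0.12. TKL2, of a minor transketolase, rose by 0.98, GPP2, which makes glycerol, by 0.62, and HAL1, a gene of salt tolerance, by 0.30. The call on HAL1 ended when any array except deletion replicate 3 was left out (adjusted p up to 0.113). It also ended under both further scalings and when every probe set other than controls was tested. Without the 3 arrays of high 25S signal the difference of HAL1 was 0.22. RTC3, a gene of unclear function, differed by -0.42. The 4 higher genes became 2 on leaving out deletion replicate 1 or 2, or wild-type replicate 2 or 3.

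Of 21 oxidative stress genes, 4 rose, 2 fell and 15 did not pass, with a median of 0.04. OYE3, an old yellow enzyme, rose by 0.71 and the glutathione transferase gene GTT2 by 0.32. Both calls ended after quantile normalization and on leaving out deletion replicate 1 or 2, or wild-type replicate 2 or 3. The call on GTT2 also ended after median centring and when every probe set other than controls was tested. With deletion replicate 2, wild-type replicate 2 or wild-type replicate 3 left out, 0 genes of the list were called higher. The peroxiredoxin gene TSA2 differed by -0.48 and ATR1, of a drug exporter, by -0.29. The call on ATR1 ended on leaving out wild-type replicate 1 or 3 and when every probe set other than controls was tested. TSA2 differed by -0.30 without the 3 arrays of high 25S signal.

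Among 20 regulators of these responses 4 rose, 3 fell and 13 did not pass. MSN4 averaged 10.68 ± 0.17 in the deletion and 9.97 ± 0.14 in wild type (SD, n = 3 each), a rise of 0.71 (SE 0.10, adjusted p = 0.00368 in limma). MSN2, named after its value was seen, differed by -0.04 (adjusted p = 0.666). YAK1, a kinase gene acting opposite protein kinase A, differed by -0.43, the heat shock factor gene HSF1 by -0.35 and GIS1, an activator after the diauxic shift, by -0.29. The call on YAK1 ended on leaving out deletion replicate 2 or 3 (-0.40 and -0.36, adjusted p = 0.0649 and 0.0523). That on HSF1 ended on leaving out deletion replicate 2 or wild-type replicate 2 or 3, with differences of -0.28 to -0.36. That on GIS1 ended on leaving out replicate 2 or 3 of either group, with differences of -0.23 to -0.30. Without the 3 arrays of high 25S signal YAK1 differed by -0.19 and GIS1 by -0.22. The 4 higher regulators became 2 on leaving out deletion replicate 2 or 3 or wild-type replicate 3. The 3 lower ones became 0 without deletion replicate 2 and 1 without deletion replicate 3 or wild-type replicate 2 or 3.

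Around the enzymes, the route from polyamines to beta-alanine and pantothenate in which ALD2 and ALD3 act held 2 higher and 2 lower genes of 8. SPE1, of ornithine decarboxylase, and FMS1, of the polyamine oxidase, rose by 0.39 and 0.41. The call on FMS1 ended on leaving out replicate 2 or 3 of either group. FMS1 differed by 0.19 without the 3 arrays of high 25S signal. The spermidine synthase gene SPE3 differed by -0.45 and ECM31, of pantothenate synthesis, by -0.22. ECM31 differed by -0.28 without the 3 arrays of high 25S signal. In the pentose phosphate pathway, to which transaldolase belongs, 3 of 11 rose and 2 fell. Beside TKL2 and TAL1, RPE1, of an epimerase, differed by 0.14. That call ended on leaving out any array except deletion replicate 1 and under the replicate block (adjusted p = 0.0510). It also ended after median centring and when every probe set other than controls was tested. SOL4 and ZWF1, of the first steps of the pathway, differed by -0.51 and -0.26. ZWF1 differed by -0.27 without the 3 arrays of high 25S signal. Over all 8 lists, which hold 120 measured genes, 27 were higher and 22 lower with a median of 0.04. The shares over all tested probe sets were 15.8% higher and 9.82% lower. The count of 27 was 16 without wild-type replicate 2, 15 without wild-type replicate 3 or without deletion replicate 3, and 12 without deletion replicate 2. After quantile normalization or median centring the split was 19 higher and 26 lower, and over all tested probe sets it was 722 higher and 728 lower or 702 higher and 711 lower, against 868 and 540 as reported.

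**Figure D4:**
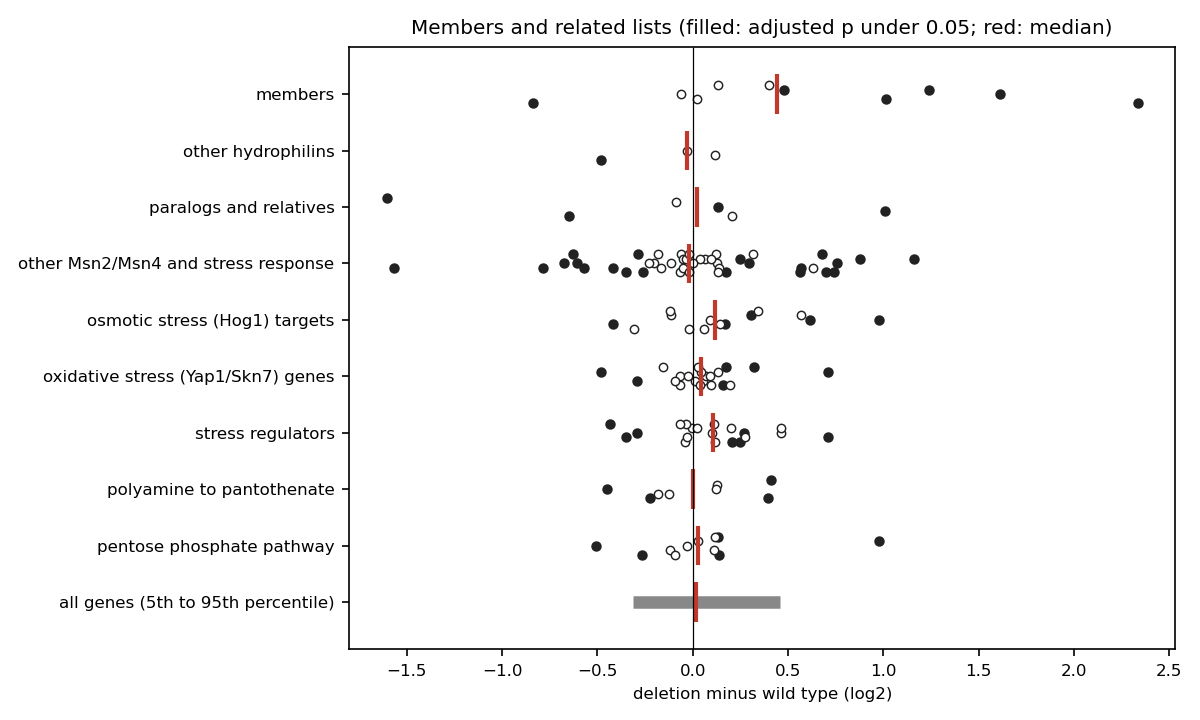
Differences, deletion minus wild type (log2), of the members and of the 8 related lists, each point a gene, filled where the adjusted p was under 0.05, with the list's median in red; the grey bar spans the 5th to 95th percentile of all genes, -0.31 to 0.46. The medians of the lists lie between -0.03 and 0.12, and that of the members at 0.44. The members were proposed with earlier differences between these arrays in view, so their median is a description only.

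Genes with profiles most like those of the 3 members with the largest increases were found by Euclidean distance between profiles over the 6 arrays, each centred on its own mean. Genes chosen this way rise about as much as the member, so their rises follow from the choice and are no separate result. Closest to DDR2 were RME1, a repressor of entry into meiosis, at a distance of 0.20 (log2), AXL1, of a protease that matures a-factor, at 0.44, and YDR222W at 0.57. They rose by 2.31, 2.03 and 2.26. Closest to GRE1 were the malate synthase gene MLS1, the acyl-CoA oxidase gene POX1 and SIP4, of an activator of gluconeogenic genes, at 0.38 to 0.40, which rose by 1.75, 1.40 and 1.53. Closest to SIP18 were IRC18, the glucan synthase gene GSC2 and the methyltransferase gene STE14, at 0.35 to 0.41, which rose by 1.03, 1.19 and 1.07.

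Measured neighbours of the members on the chromosomes, taken from the gene order of assembly R64, numbered 18, of which 5 rose, 3 fell and 10 did not pass, with a median of 0.11. Among all tested probe sets 15.8% were called higher and 9.82% lower. Both neighbours of DDR2, AIM39 and SPE2, did not pass, at 0.03 and -0.18, though SPE2 passed after either further scaling and without wild-type replicate 1. RME1 is also the neighbour of NQM1. SGA1, a glucoamylase gene of sporulation that adjoins XBP1, rose by 1.08, against 1.01 for XBP1. The neighbours were looked up after the members' values were seen.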

How the data were processed

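Polyadenylated RNA from 6 cultures, 3 per strain, was hybridised to 6 arrays, per the labels' protocols. The authors deposited 1 log2 value per probe set, made with GCRMA according to the submitters' processing notes; these also list GCOS 1.1 and limma. No source gives the log base, and the range of the values was read as base 2. Array scanner files were not used here, and 0 columns belonged to other samples.

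Probe sets were named through the platform table and the gene table of R64. Controls, probe sets with no gene symbol and probe sets taken as Schizosaccharomyces pombe were left out of the test. Any probe set with a symbol but no single match in the gene table of R64 was taken as S. pombe. Background was set at the 95th percentile over the 1747 probe sets taken as S. pombe, 5.68 on the means. Medians of the tested probe sets were 10.85 to 10.91. Differences are deletion minus wild type, fitted with limma 3.58.1 in R 4.3.3 (lmFit, eBayes, two-sided, no covariates) over 5498 probe sets, with Benjamini-Hochberg adjustment at 0.05. Every adjusted p comes from that fit, except where an alternative is named, which has its own limma fit and adjustment. The adjusted value for ratios of related genes comes from the permutation tests. Tested on simulated data of 5498 probe sets, the fit recovered 90% of 50 changes of 0.5 (log2) and 96% of 50 changes of 1. It also called 4 unchanged probe sets. The simulated noise was independent between probe sets and arrays, so effects shared within an array were absent. Recovery on the real arrays was not measured. The members, lists and tests were chosen with earlier results of these data known. Genes named are the members, their relatives, other hydrophilins, up to 4 called genes of each other list, PUN1, mating-type markers and the nearest profiles.

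Replicate numbers are shared by the groups. As no label ties a number to a shared day, the deviations of same-numbered arrays were correlated, at 0.351, 0.213 and 0.112. All exceed 0.1, the limit set for pairing, but among arrays of different number both combinations of replicates 2 and 3 exceed it too, at 0.183 and 0.161. Deviations from a group mean depend on each other, so these correlations cannot decide whether arrays were paired. Values are from the fit without the block. With the block the adjusted p (limma) was 0.000177 for DDR2 and 0.000482 for CTT1. Intervals rest on 3 arrays per group. Figures used matplotlib 3.10.9. Sequences are not shown here.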

Additional observations from a re-analysis of the deposited data

How the results depend on the processing

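Each main result was recomputed under 14 alternatives: further quantile normalization, median centring, 2 choices of probe sets tested, a variance trend, robust variance, the replicate block, each array left out in turn, and, added after the data were seen, the 3 arrays of high 25S rRNA signal left out. The last of these left deletion replicate 1 alone against wild-type replicates 2 and 3, and that array was assumed to vary like the others. Of 224 recomputed values 203 kept their direction and side of the threshold or stayed within 1.5 times the reported count. The cause was not tested for the others, except that fewer arrays enter the fits that leave some out and that testing every probe set lengthens the adjustment. ALD3 did not pass after quantile normalization, at 0.22, and was 0.25 without the 3 arrays. YGP1 passed without deletion replicate 1, at 0.20. Values near 0 turned sign without a call: HOR7 at -0.00743 and AIM39 at -0.000304 after median centring, and AIM39 at -0.0422, HOR7 at -0.0508, YGP1 at -0.0270, NOP6 at 0.0682 and ALD4 at 0.0534 without the 3 arrays. With 1 array left out ALD2 ranged from -0.120 to 0.00470, NOP6 from -0.0752 to 0.0347, MSN2 from -0.111 to 0.00580, MFA1 from -0.213 to 0.0406 and YGP1 from 0.0894 to 0.203. Counts over all tested probe sets, reported as 868 higher and 540 lower, were 565 and 321 when every probe set other than controls was tested, and 507 to 874 higher and 284 to 560 lower with 1 array left out. Without the 3 arrays 447 were higher. The 27 higher genes of the stress lists were 16 when every probe set was tested and 12 to 23 with 1 array left out. The replicate block gave 956 higher and 604 lower probe sets and the same 5 higher and 1 lower as a count of members; it ended the calls of TAL1 and RPE1 and of no other named gene. The alternative of another probe set per gene was not run, because each member had 1. Lists without an enrichment test are described by counts and medians only, and the number of arrays limits the precision of each difference.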
